A study of Mus musculus with 4 samples.

Results

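The antigen presentation genes B2m, Pdia3, Cd1d1, Mr1, Cd40 and Rfx5 were described across the cells of 4T1 mouse mammary tumours. They were taken by symbol from the deposited count table, which holds UMIs (distinct transcript molecules counted per gene and cell), and all 6 had a row among its 4099 complete gene rows. Each was followed over the cell type names that the authors gave to barcodes, within each barcode suffix. All tumours were of 4T1, a mammary carcinoma line that can be transplanted, in BALB/c mice, the line's own strain. They were either Mif-depleted (samples sgMif1 and sgMIif2) or wild-type (CON1 and CON2), with 2 samples per group. Mif encodes a secreted inflammatory mediator. A sample combined 3 tumours, and its cells were sorted as CD45-positive and negative for propidium iodide, a dye that enters dead cells, before droplet single-cell sequencing.

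No label or header assigned a barcode suffix to a sample, so Mif-depleted and wild-type tumours were not compared for any gene. The values describe cell types within single suffixes of unknown group. Each suffix was taken as 1 library, which no label or header states. Suffix 1 had counts for 13162 cells (29567302 UMIs, median 1224.5 per cell) and suffix 2 for 3221 cells (8578852 UMIs, median 1712), and the 2 shared 12 barcode sequences among these cells. A level is the number of UMIs of a gene per 10000 UMIs of the counted genes, summed over the cells of a name. Since the counted genes are a part of the transcriptome, such totals are not a cell's full depth. Brackets hold exact 95% intervals, which cover counting error only, and levels are compared between cell types but not between genes. Values are from suffix 1 unless suffix 2 is named. Orders of names run over 21 names, those with 50 or more cells in suffix 1 and 20 or more in suffix 2.

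Class I molecules display peptides from inside the cell to CD8 T cells. B2m encodes beta-2-microglobulin, the light chain that they share with the class I-like molecules CD1d and MR1, and Pdia3 encodes ERp57, a disulfide isomerase of the endoplasmic reticulum that takes part in folding and peptide loading. Cd1d1 encodes CD1d, which presents lipids to natural killer T cells, and Mr1 encodes the molecule that presents vitamin B metabolites to MAIT cells. CD40 is a receptor of antigen-presenting cells that is engaged by CD40 ligand on helper T cells, and Rfx5 encodes a subunit of the factor that binds class II promoters.

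The genes lie on chromosomes 1, 2 and 3 of GRCm38, and the annotation lists all 6 as protein-coding. B2m spans chr2:122147686-122153083 on the plus strand, and Pdia3 (chr2:121413775-121438687, plus) ends 709 kb before it. Cd40 spans chr2:165055627-165072948 (plus), Cd1d1 chr3:86995834-86999441 (minus), Mr1 chr1:155127277-155146814 (minus) and Rfx5 chr3:94954075-94961561 (plus). Cd1d2, a close copy of Cd1d1 at chr3:86986551-86989780, was not analysed here, and how reads were assigned between the copies is not given in the sources used here.

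RefSeq promoters (GRCm38.p6, 250 bases before to 50 after the start) matched 4 of the 6 genes. Those of B2m and Pdia3 are shown because these members had the most UMIs and differed in their order over cell types. The B2m window is chr2:122147437-122147736 and the Pdia3 window chr2:121413652-121413951, both on the plus strand and written 5′ to 3′, with matches to the motifs searched in capitals.
B2m: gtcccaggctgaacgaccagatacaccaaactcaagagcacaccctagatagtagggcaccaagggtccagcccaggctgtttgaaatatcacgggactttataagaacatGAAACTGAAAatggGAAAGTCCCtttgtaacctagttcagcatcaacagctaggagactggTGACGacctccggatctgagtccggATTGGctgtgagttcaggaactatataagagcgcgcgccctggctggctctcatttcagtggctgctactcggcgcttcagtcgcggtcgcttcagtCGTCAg
Pdia3: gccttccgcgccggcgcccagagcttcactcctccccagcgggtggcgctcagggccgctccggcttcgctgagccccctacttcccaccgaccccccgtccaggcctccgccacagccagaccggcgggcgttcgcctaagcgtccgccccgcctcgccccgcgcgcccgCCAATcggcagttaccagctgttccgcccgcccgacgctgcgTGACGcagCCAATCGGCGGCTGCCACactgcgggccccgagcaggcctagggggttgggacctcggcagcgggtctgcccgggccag
The motifs, searched on both strands, were GAAA and GAAA with 2 bases between them (bound by interferon regulatory factors), GGGACTTTC (bound by NF-kB), CCAAT (bound by NF-Y), TGACG (part of the cyclic AMP response element) and CCAAT and CCAC with 9 bases between them (the endoplasmic reticulum stress element without its last letter, which contains the CCAAT motif). Among 32851 mouse promoters of the same length, 3.44%, 0.353%, 37.4%, 20.8% and 0.365% held them, in that order. The B2m window held the interferon regulatory factor motif at bases -139 to -130 from the start and the NF-kB motif, on the minus strand, at -125 to -117. It also held TGACG at -78 to -74 and, on the minus strand, at 45 to 49, and a minus-strand CCAAT at -53 to -49. The Pdia3 window held neither of the first 2, but the stress element without its last letter at -29 to -12, a further CCAAT at -79 to -75 and TGACG at -37 to -33. The base after this stress element match is A, where the full element has G, so the full element was not matched. The Rfx5 window held CCAAT at -113 to -109 and at -54 to -50, and the Mr1 window held none of the 5. These are letter matches to motifs chosen after the sequences were seen, and no binding was measured.

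Markers fitted several of the names that carry results, but not all. Pax5, Fcmr, Cr2 and Bank1 were each highest in B cells. Col3a1, Col5a2, Col6a3 and Serping1 were highest in fibroblasts, but so was the monocyte marker Fn1. Elf3, Sfn and Spint1 were highest in epithelial cells, but the listed epithelial marker Muc1 in NK_cell. Batf3, Zbtb46 and Tnfsf4, the measured dendritic cell markers, summed to 15.7 in cDC1_Ccl22 and 3.80 in cDC2_Cd209a, against 0.0296 to 1.38 in the other names of the orders. The name cDC1_Clec9a was among those others, at 1.17, while the osteoclast-like list (Ctsk, Atp6v0d2 and Slc9b2) stood at 579 in it and at 137 in pDC. The measured markers go against the name cDC1_Clec9a, and it is used here only as deposited. Clec9a itself and Xcr1, also on the dendritic list, were not measured. None of the 3 plasmacytoid dendritic cell markers listed was measured. In suffix 2 the measured dendritic markers summed to 14.6 in cDC1_Ccl22 but to 1.47 in cDC2_Cd209a, close to 1.21 in NK_cell. There cDC1_Ccl22 also held the T cell markers Cd28, Ctla4, Icos and Cd247 at 10.5 in sum, against 1.95 in suffix 1. The natural killer cell marker Xcl1 stood at 5.10 in it, against 0.488 in suffix 1. Cells named CD8_Tex had a summed macrophage marker level of 215, against 9.71 to 13.1 in the 5 CD4 names. Fibroblasts and epithelial cells were present although the sort selected CD45.

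**Figure D1:**
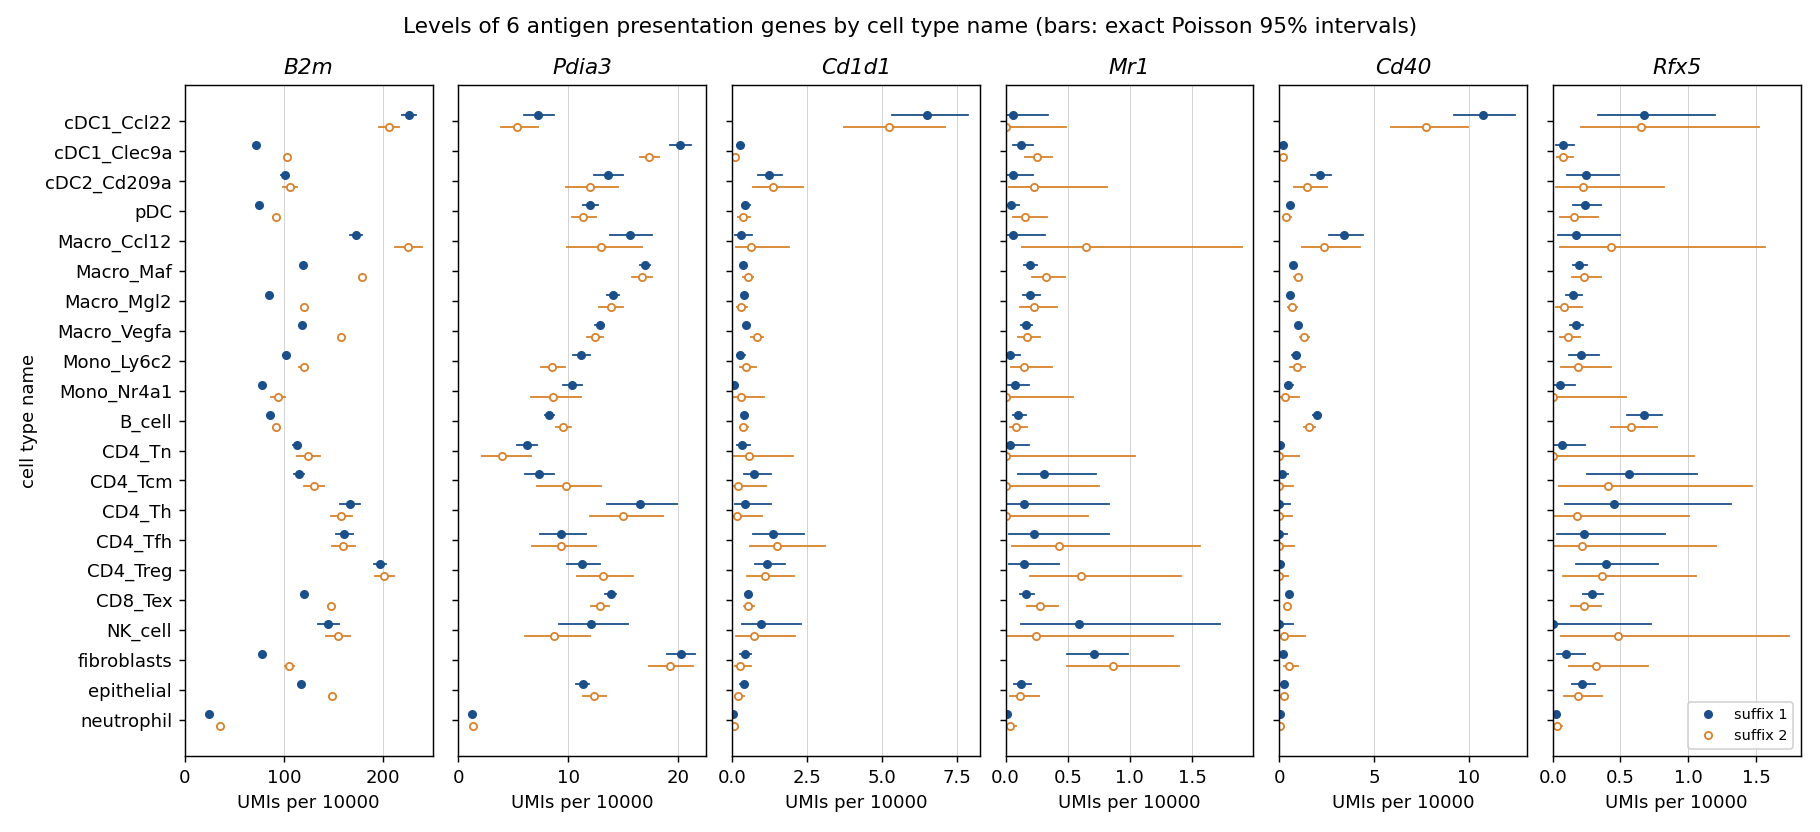
Levels of the 6 genes (UMIs per 10000 counted UMIs, linear axes from 0, a scale of its own in each panel) in 21 cell type names. Filled points are suffix 1, open points suffix 2, and bars are exact Poisson 95% intervals. Cd40 and Cd1d1 stood highest in cDC1_Ccl22 in both suffixes, at 10.7 and 6.52 in suffix 1, and Mr1 in fibroblasts, at 0.710.

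B2m was highest in cDC1_Ccl22 and in regulatory CD4 cells and lowest in neutrophils, though in neutrophils not low relative to the median gene. It stood at 226 in cDC1_Ccl22 (3705 UMIs in 88 cells), 197 in CD4_Treg, 172 in Macro_Ccl12, 166 in CD4_Th and 161 in CD4_Tfh. The levels of cDC1_Ccl22 and CD4_Treg were each above the next beyond counting error, while Macro_Ccl12, CD4_Th and CD4_Tfh were not told apart from their neighbours among these 3. NK_cell came next at 145, below CD4_Tfh and above CD8_Tex beyond counting error. CD8_Tex, Macro_Maf, Macro_Vegfa, epithelial, CD4_Tcm and CD4_Tn followed between 120.0 and 113, with no pair of neighbours apart. The lowest were fibroblasts at 78.3, pDC at 75.1, cDC1_Clec9a at 71.3 and neutrophils at 24.1, each below the one before it beyond counting error. In all, 10 of 20 neighbouring pairs were apart, and 7 of 20 in suffix 2.

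A gene was called higher or lower in a name when it had 50 or more UMIs over both sides and the whole interval of its ratio to all other cells lay beyond 2-fold. B2m was called higher in cDC1_Ccl22 (226 against 76.4, log2 ratio 1.56 [1.52, 1.61]), where 7.83% of the 3514 genes tested were called higher. It was also called higher in CD4_Treg (1.36 [1.32, 1.41], background 9.48%), Macro_Ccl12 (1.17 [1.11, 1.22], background 2.9%) and CD4_Th (1.11 [1.02, 1.19], background 5.72%). The last 3 calls depended on the scaling. With S100a8 and S100a9, calcium-binding proteins that neutrophils make in bulk, left out of the UMI totals, the ratios were 0.97 [0.93, 1.02] in CD4_Treg, 0.79 [0.74, 0.84] in Macro_Ccl12 and 0.72 [0.63, 0.80] in CD4_Th, and all 3 calls ended. Per cell they ended too, at 0.06, 0.41 and 0.19 for these names, whereas cDC1_Ccl22 kept its call both ways (1.22 [1.17, 1.26] and 1.29 [1.24, 1.34]). In suffix 2 it was called higher in 0 names by the same rule. Its log2 ratio for cDC1_Ccl22 was 0.85 there, at 206 against 114 in other cells. Neutrophils, lowest for B2m, were 925 of 3221 cells in suffix 2 and 5712 of 13162 in suffix 1. Their part in the levels of other cells was not tested. Macro_Ccl12 came first in suffix 2 at 225, followed by cDC1_Ccl22 at 206 and CD4_Treg at 201.

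Neutrophils had 24.1 B2m UMIs per 10000 against 108 in other cells, and 35.1 against 134 in suffix 2. S100a8 and S100a9 took 5850 of every 10000 UMIs in neutrophils. Without these 2 genes in the totals the neutrophil level of B2m was 58.0 and its ratio -0.96 [-0.98, -0.94], which was no call. Per cell, neutrophils held 4.55 B2m UMIs, the fewest of the 21 names. Under median-of-ratios scaling, which sets the ratio against the median gene, the log2 ratio for neutrophils was 0.22 in place of -2.16. Per 10000 UMIs, all 6 genes were called lower in neutrophils in both suffixes, but so were 73.5% of genes in suffix 1 and 66.7% in suffix 2, so these calls do not set the 6 apart. Under median-of-ratios scaling 1 of the 6 was called lower in suffix 1, Cd40, where 22.9% of genes were.

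Among lymphocytes, B2m was higher in CD4_Treg than in CD4_Tn, at 197 against 113 (log2 ratio 0.80 [0.74, 0.87]), and at 201 against 124 in suffix 2 (0.69 [0.54, 0.85]). B cells stood lower, at 86.0, and at 91.7 in suffix 2. Among dendritic names, cDC1_Ccl22 stood above cDC2_Cd209a, at 226 against 101 (1.17 [1.10, 1.23]), and at 206 against 106 in suffix 2 (0.96 [0.84, 1.08]). Among macrophage names, Macro_Ccl12 stood above Macro_Maf, at 172 against 119 (0.54 [0.48, 0.59]), but in UMIs per cell below it, at 23.1 against 47.6. In cells with 500 or more UMIs, the median B2m share was 239 per 10000 in cDC1_Ccl22 (quartiles 140 and 314), 186 in CD4_Treg (150 and 251) and 24.7 in neutrophils (11.9 and 48.4). The quartile ranges of cDC1_Ccl22 and CD4_Treg overlapped, and neither reached that of neutrophils.

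Pdia3 followed another order. It was highest in fibroblasts at 20.2 (998 UMIs) and cDC1_Clec9a at 20.2 (1652 UMIs), which were not told apart, then in Macro_Maf at 16.9, CD4_Th at 16.5 and Macro_Ccl12 at 15.6. Against all other cells the log2 ratio of CD4_Th was 0.89 [0.61, 1.16], but -0.03 in UMIs per cell. It was lowest in CD4_Tcm at 7.29, cDC1_Ccl22 at 7.25, CD4_Tn at 6.20 and neutrophils at 1.26. In suffix 2 fibroblasts were again first, at 19.3, and cDC1_Ccl22 (5.36), CD4_Tn (3.96) and neutrophils (1.29) again last. Neighbours were apart in 2 of 20 pairs in each suffix, so most of the middle order lies within counting error.

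Pdia3 was called higher in cDC1_Clec9a (1.23 [1.16, 1.30], background 10.4%), fibroblasts (1.21 [1.12, 1.30], background 16.7%) and Macro_Maf (1.08 [1.03, 1.12], background 5.55%). All 3 calls ended with S100a8 and S100a9 left out of the totals, at 0.83 [0.76, 0.90], 0.85 [0.75, 0.94] and 0.66 [0.62, 0.70] for these names. Per cell they were kept, at 2.40, 1.87 and 1.98, but there 39.7%, 27.6% and 48.2% of genes were called higher in these names. In suffix 2 it was called higher in 0 names, with log2 ratios of 0.78, 0.84 and 0.70 for the same names. Within the CD4 cells it was higher in CD4_Th than in CD4_Tn, at 16.5 against 6.20 (log2 ratio 1.41 [1.06, 1.76]), and at 15.0 against 3.96 in suffix 2 (1.92 [1.10, 2.85]). Hspa5, the gene of the endoplasmic reticulum chaperone BiP, stood at 49.1 in fibroblasts against 24.2 in other cells (1.02 [0.96, 1.08]) and at 48.0 in cDC1_Clec9a against 24.0 in other cells (1.00 [0.95, 1.05]), just short of a call. In suffix 2 its log2 ratios were 0.25 and 0.30 for these 2 names.

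The 2 genes of the class I pathway stood far apart in their orders in some cells. In cDC1_Ccl22 against cDC2_Cd209a, B2m was higher and Pdia3 was lower, at 7.25 against 13.6 (log2 ratio -0.91 [-1.21, -0.61]), and likewise in suffix 2 (-1.16 [-1.72, -0.63]). In cDC1_Clec9a the B2m level of 71.3 was the lowest but for neutrophils, and that of Pdia3 was 20.2. In suffix 2 it stood at 103 for B2m, place 17 of 21, and at 17.4 for Pdia3, place 2. Over the 21 names, log2 levels of B2m and Pdia3 had a Pearson correlation of 0.50, and of 0.56 in suffix 2. The points of each correlation share 1 suffix and the UMI totals used for scaling, and neutrophils lie low on both genes.

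**Figure D2:**
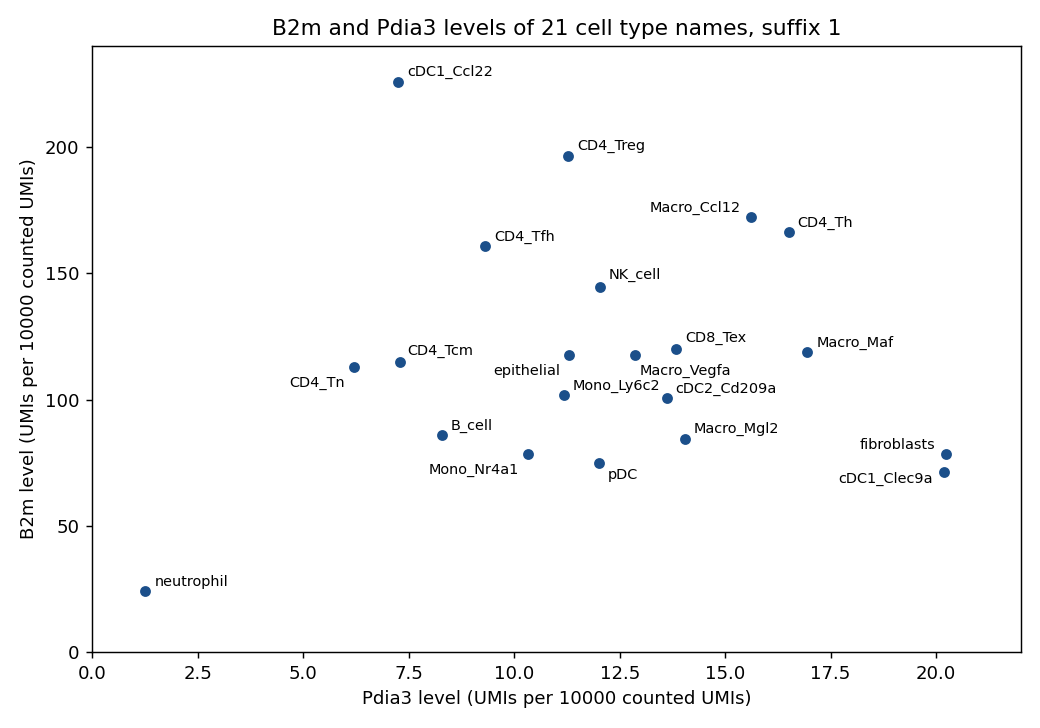
B2m level against Pdia3 level (UMIs per 10000 counted UMIs, linear axes from 0) for 21 cell type names in suffix 1, 1 point per name. The name cDC1_Ccl22 lies high on B2m (226) and low on Pdia3 (7.25), and fibroblasts and cDC1_Clec9a lie low on B2m (78.3 and 71.3) and high on Pdia3 (both 20.2). Neutrophils lie lowest on both with this scaling, but for B2m not relative to the median gene.

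Cd1d1 had its highest level in cDC1_Ccl22, though other cells held most of its UMIs (875). In that name 107 UMIs gave 6.52, other cells stood at 0.298, and the log2 ratio was 4.45 [4.15, 4.74]. In suffix 2 it stood at 5.23 (40 UMIs) against 0.396 (3.72 [3.21, 4.20], background 5.41% of 3087 genes tested). The next names were CD4_Tfh at 1.38 (12 UMIs), cDC2_Cd209a at 1.23 (40 UMIs) and CD4_Treg at 1.18 (24 UMIs), which were not told apart from one another. The same 4 names came first in suffix 2, at 5.23, 1.52, 1.36 and 1.09. The lowest were cDC1_Clec9a at 0.256, Mono_Nr4a1 at 0.0746 and neutrophils at 0.0454.

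The calls of Cd1d1 were cDC1_Ccl22, CD4_Tfh (2.07 [1.11, 2.88], background 7.46%), cDC2_Cd209a (1.94 [1.44, 2.40], background 4.07%) and CD4_Treg (1.86 [1.21, 2.44], background 9.48%). Those of CD4_Tfh and CD4_Treg ended with S100a8 and S100a9 left out of the totals (1.68 [0.72, 2.49] and 1.47 [0.82, 2.05]) and per cell (0.48 [-0.48, 1.29] and 0.56 [-0.09, 1.14]). The calls in cDC1_Ccl22 and cDC2_Cd209a were kept both ways. In suffix 2 it was called higher in cDC1_Ccl22 and lower in cDC1_Clec9a (-2.07 [-3.08, -1.21], background 19%). At least 1 Cd1d1 UMI was found in 44.3% [33.7, 55.3] of cDC1_Ccl22 cells (median 1692 UMIs) against 0.840% of neutrophils (median 1120). After each cell was thinned to 500 UMIs, the shares were 32.5% of 80 cDC1_Ccl22 cells and 0.312% of 5126 neutrophils. In suffix 2 the thinned share was 8.11% of 37 cDC1_Ccl22 cells, close to 8.82% of 34 cDC2_Cd209a cells, and with 3 such cells in each the shares of both names lay within each other's intervals.

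Mr1 was highest in fibroblasts. Their level was 0.710 (35 UMIs) and that of other cells 0.0963, giving a log2 ratio of 2.88 [2.33, 3.39]. In suffix 2 fibroblasts stood at 0.861 (16 UMIs) against 0.170 (2.34 [1.49, 3.09], background 10.8%). NK_cell followed at 0.592, from 3 UMIs, and CD4_Tcm at 0.312, from 5, and no neighbours in the order were apart. Mono_Ly6c2 (0.0393), CD4_Tn (0.0332) and neutrophils (0.0120) were lowest. Against epithelial cells, the other cells that a CD45 sort should leave out, fibroblasts stood at 0.710 against 0.123 (2.53 [1.62, 3.50]). An Mr1 UMI was found in 16.4% of 140 fibroblasts (median 2301 UMIs) against 0.210% of neutrophils, but after thinning to 500 UMIs in 0 of 104 fibroblasts, which allows a share of up to 2.88%. After thinning to 1000 UMIs it was found in 9.76% of 82 fibroblasts against 0.158% of neutrophils.

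Cd40 was highest in cDC1_Ccl22, Macro_Ccl12, cDC2_Cd209a and B cells and close to 0 in the CD4 names. It stood at 10.7 in cDC1_Ccl22 (176 UMIs), 3.42 in Macro_Ccl12 (60), 2.16 in cDC2_Cd209a (70) and 1.99 in B cells (330), and then at 1.00 in Macro_Vegfa. The first 2 were each above the next beyond counting error, cDC2_Cd209a and B cells were not told apart, and B cells were above Macro_Vegfa. In suffix 2 the levels were 7.72, 2.38, 1.47 and 1.59 for the same 4 names, and 1.30 for Macro_Vegfa.

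In the 5 CD4 names together, 1112 cells held 5 Cd40 UMIs, a level of 0.0611 [0.0198, 0.143]. In suffix 2, 269 such cells held 0, which allows a level of up to 0.112 (3 UMIs). NK_cell was at 0 in suffix 1, which allows a level of up to 0.592 in its 58 cells, and neutrophils were at 0.0222. Cd40 was called lower in CD4_Tn (-3.11 [-6.15, -1.25], background 9.68%) and CD4_Treg (-3.53 [-8.84, -1.05], background 5.86%), from 2 UMIs and 1 UMI.

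It was called higher in cDC1_Ccl22 (4.39 [4.16, 4.62]), Macro_Ccl12 (2.64 [2.24, 3.01]), B cells (2.05 [1.87, 2.22], background 16.1%) and cDC2_Cd209a (1.98 [1.61, 2.32]). All 4 were kept with S100a8 and S100a9 left out of the totals, but that in B cells ended per cell, at 0.64 [0.47, 0.82]. In suffix 2 the calls were cDC1_Ccl22 (3.62 [3.21, 4.01]) and B cells (1.42 [1.13, 1.70], background 7.06%), and lower in cDC1_Clec9a, at 0.177 against 0.755 (-2.09 [-2.88, -1.40]). A Cd40 UMI was found in 59.1% [48.1, 69.5] of cDC1_Ccl22 cells, 16.8% of Macro_Ccl12 (median 423 UMIs), 32.1% of cDC2_Cd209a (median 2362), 14.5% of B cells (median 558) and 0.403% of neutrophils. After thinning to 500 UMIs, the shares were 31.3% of cDC1_Ccl22, 12.5% of Macro_Ccl12, 12.2% of cDC2_Cd209a, 9.71% of B cells and 0.156% of neutrophils. In suffix 2 they were 27.0%, 22.2%, 5.88% and 10.0%, with 0 of 781 neutrophils, which allows a share of up to 0.384%.

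**Figure D3:**
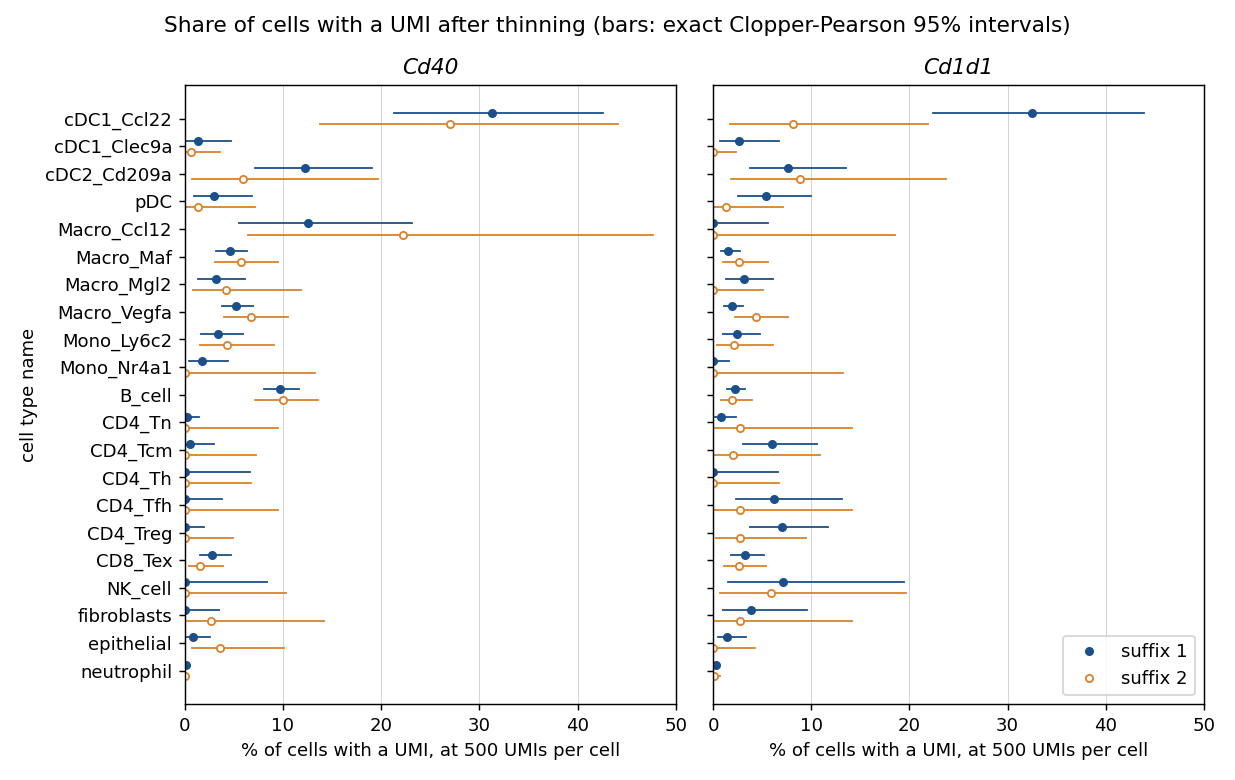
Share of cells with at least 1 UMI of Cd40 (left) and Cd1d1 (right) after thinning each cell to 500 UMIs, in percent, for 21 cell type names. Filled points are suffix 1, open points suffix 2, and bars exact Clopper-Pearson 95% intervals. Cells named cDC1_Ccl22 had 31.3% and 27.0% for Cd40, and 32.5% and 8.11% for Cd1d1, in suffixes 1 and 2, and neutrophils at most 0.312% in any of the 4.

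Of 88 cDC1_Ccl22 cells, 29 held UMIs of both Cd40 and Cd1d1, 23 of Cd40 alone, 10 of Cd1d1 alone and 26 of neither. The cells with both had a median of 1848 UMIs and those with neither 1370.5, so depth moved with detection, and its part in the overlap was not tested. In suffix 2 the counts were 9, 17, 1 and 12 of 39 cells. The Macro_Ccl12 level came from deeper cells. In its 64 cells with 500 or more UMIs Cd40 stood at 3.73 and B2m at 178, and in its 67 shallower cells at 0.588, from 1 UMI, and 115. Across the 131 cells, 22 held a Cd40 UMI, and the most in a cell was 9. Markers of other antigen-presenting cells were low in Macro_Ccl12, with dendritic markers at 0.570 (Zbtb46 and Tnfsf4 at 0) and the 4 measured B cell markers at 0.627, while the macrophage markers stood at 428.

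The name CD8_Tex held cells with and without transcripts of C1q, a complement component that macrophages make. Cd40 stood at 0.0529 (1 UMI) in the 106 CD8_Tex cells with no UMI of C1qa, C1qb or C1qc, at 0.182 in the 168 cells with 1 to 4 and at 0.661 (105 UMIs) in the 253 cells with 5 or more. The levels in suffix 2 were 0.287, 0.152 and 0.705. Macro_Maf cells with 5 or more C1q UMIs had 0.737. B2m ran the other way, at 161, 144 and 109, and at 165, 161 and 129 in suffix 2. The T cell markers (Cd28, Ctla4, Icos and Cd247) summed to 49.6, 51.7 and 13.1, and the median depth was 1169.5, 1616.5 and 5447 UMIs per cell. The macrophage transcripts and the depth moved with both genes, and their part in these levels was not tested. The CD8_Tex levels of Cd40 (0.522) and B2m (120.0) are sums over all 3 classes.

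**Figure D4:**
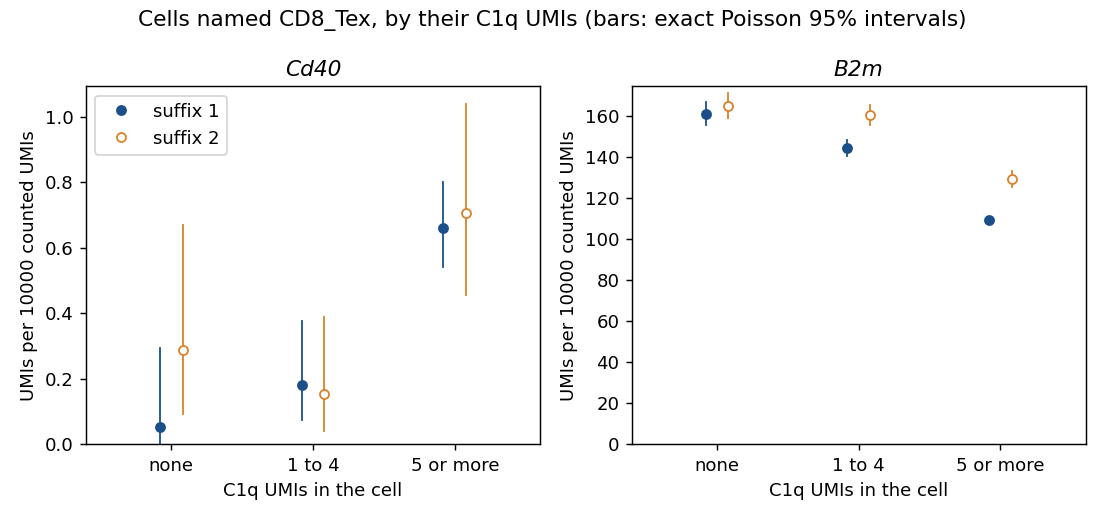
Cd40 (left) and B2m (right) levels, in UMIs per 10000 counted UMIs on axes from 0, of CD8_Tex cells with no, 1 to 4 and 5 or more C1q UMIs. Filled points are suffix 1, open points suffix 2, and bars exact Poisson 95% intervals. In suffix 1 Cd40 stood at 0.0529, 0.182 and 0.661 and B2m at 161, 144 and 109.

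Rfx5 was highest in B cells and cDC1_Ccl22. B cells held 111 UMIs, a level of 0.671, with 0.131 in other cells and a ratio on the log2 scale of 2.36 [2.04, 2.67]. In suffix 2 B cells stood at 0.580 (49 UMIs) against 0.145 (2.00 [1.49, 2.50]). In cDC1_Ccl22 it stood at 0.670 from 11 UMIs (2.08 [1.07, 2.94]) and in suffix 2 at 0.654 from 5. CD4_Tcm came next at 0.561, from 9 UMIs, and Mono_Nr4a1 (0.0559) and neutrophils (0.0222) were the lowest names with a UMI, but no neighbours in the order were apart. NK_cell held 0 UMIs among 50710, which allows a level of up to 0.592, near the highest, and in suffix 2 it took place 3 at 0.482, from 2 UMIs. Its place is therefore not known. The call in B cells was kept with S100a8 and S100a9 left out of the totals but ended per cell (0.95 [0.63, 1.27]), and that in cDC1_Ccl22 ended both ways (1.74 [0.73, 2.59] and 1.81 [0.80, 2.67]). A UMI was found in 5.66% of B cells against 0.403% of neutrophils, and after thinning in 4.50% against 0.137%.

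Read by name, cDC1_Ccl22 had 4 of 6 members called higher (B2m, Cd1d1, Cd40 and Rfx5), beside a background of 7.83%, with Mr1 at 1 UMI and Pdia3 at 7.25 against 8.93. In suffix 2 the count was 2 of 6, beside 5.41%. B cells had 2 of 6 in both suffixes (16.1% and 7.06%), and fibroblasts 2 of 6 and then 1 of 6 (16.7% and 10.8%). Macro_Ccl12 (2.9% and 1.78%), cDC2_Cd209a (4.07% and 1.91%) and CD4_Treg (9.48% and 5.47%) had 2 of 6 and then 0 of 6. With S100a8 and S100a9 left out of the totals, 9 of the 18 higher calls of suffix 1 were kept. The counts were then 3 of 6 in cDC1_Ccl22 (background 5.72%), 2 in B cells (7.46%), 2 in cDC2_Cd209a (2.36%), 1 in fibroblasts (13.5%), 1 in Macro_Ccl12 (1.65%) and 0 in CD4_Treg (5.92%). The 6 genes were chosen with earlier results of these data known, so these counts are a description.

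The wider pathway lists had 37 of 102 genes measured, 31 of them not among the 6. The lists hold the members too, so Cd40 and Rfx5 enter the counts and medians of their lists again. The lists were chosen with earlier results of these data known. Of the 6 measured genes of CD40 signalling, 3 were called higher in cDC1_Ccl22 (Cd40, Traf1 and Nfkb1), beside a background of 7.83%, and the list's median log2 ratio was 1.72 beside 0.32 for all genes tested. Traf1, an adaptor that binds TNF receptors, stood at 44.6 against 2.83 (3.98 [3.87, 4.09]), and at 33.1 against 3.56 in suffix 2 (3.22 [3.03, 3.40]). Nfkb1, the NF-kB subunit gene, stood at 20.4 against 6.13 (1.74 [1.58, 1.89]), and at 31.4 against 7.09 in suffix 2 (2.15 [1.95, 2.33]). The same 3 genes were called higher in cDC2_Cd209a (background 4.07%), with Traf1 at 9.91 against 2.98 (1.73 [1.57, 1.89]), and a ratio of 1.55 [1.25, 1.84] in suffix 2. In CD4_Treg, Traf1 (14.6 against 2.98), Traf2 (1.58 against 0.399) and Nfkb1 (19.7 against 6.11) were called higher, beside a background of 9.48%, while Cd40 was called lower. Of these calls, that of Nfkb1 in cDC2_Cd209a ended with S100a8 and S100a9 left out of the totals (1.06 [0.94, 1.19]), and the others were kept. In B cells Cd40 was joined by Traf5, at 1.86 against 0.262 (2.83 [2.63, 3.02]), and at 1.34 against 0.358 in suffix 2 (1.90 [1.57, 2.22]).

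Of the 6 measured genes of class II presentation and its factors, Rfx5, Creb1 and Sppl2a were called higher in cDC1_Ccl22, beside a background of 7.83%. With S100a8 and S100a9 left out of the totals all 3 calls ended, with lower limits of 0.73, 0.67 and 0.82. Creb1, a factor that binds class II promoters beside the RFX complex, stood at 3.84 against 1.45 (1.40 [1.02, 1.76]). Sppl2a, a protease that clears the last fragment of the invariant chain, stood at 9.20 against 3.47 (1.41 [1.16, 1.64]), and neither was called in suffix 2, with log2 ratios of 1.24 and 0.63. Ctss, the gene of cathepsin S, stood at 11.2 in B cells against 36.0 in other cells. It was called higher in Macro_Ccl12 (115 against 34.1), Macro_Maf (99.2 against 27.4) and Macro_Vegfa (79.1 against 29.1, background 2.87%).

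Of the 6 measured genes of the cross-presentation list, 5 were called lower in cDC1_Ccl22, where 2.9% of genes were. All 5 are Fc receptor genes (Fcer1g, Fcgr1, Fcgr2b, Fcgr3 and Fcgr4), so the calls describe Fc receptor transcripts, and cross-presentation itself was not measured. Fcer1g stood at 21.7 against 69.6 (-1.68 [-1.83, -1.53]), and at 20.7 against 65.6 in suffix 2. In Macro_Ccl12, Fcgr1 (19.3 against 2.86), Fcgr2b (21.2 against 8.38) and Fcgr4 were called higher, beside a background of 2.9%, and the call of Fcgr2b ended with S100a8 and S100a9 left out (0.96 [0.81, 1.11]). Of 12 measured proteasome genes, 5 were called higher in epithelial cells (Psma5, Psma7, Psmb4, Psmc2 and Psmd4), with a list median of 1.10 beside 0.28 for all genes and a background of 16.9%. Psma5 stood at 19.3 against 6.28 and Psma7 at 25.3 against 10.5, and of the 5 calls that of Psma5 was kept with S100a8 and S100a9 left out (1.23 [1.17, 1.29]). Of the 4 measured class I genes, B2m, Pdia3, Hspa5 and Sec61b, none was called in epithelial cells, where B2m stood at 118 and Pdia3 at 11.3.

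Genes whose log2 levels most resembled each member's over the 21 names were taken among 2925 genes with 200 or more UMIs. For B2m they were Rbck1 (Pearson correlation 0.88, and 0.80 in suffix 2), Armc10 (0.87 and 0.77) and Ppdpf (0.86 and 0.72). For Pdia3 they were Rabl6 (0.94 and 0.71), Ddost (0.93 and 0.88) and Rpn2 (0.93 and 0.88), the last 2 encoding subunits of the enzyme that attaches sugar chains in the endoplasmic reticulum. Kynu (0.91 and 0.84), Nuak2 (0.86 and 0.82) and A530032D15Rik (0.85 and 0.72) came closest to Cd40. Kdm4a (0.94 and 0.62), Zfp362 (0.78 and 0.71) and Etv3 (0.78 and 0.76) came closest to Cd1d1, and Taf12 (0.81 and 0.66), Trmt1l (0.77 and 0.42) and Ankib1 (0.74 and 0.52) to Rfx5. For Mr1, Pofut1 (0.78 and 0.17), Gne (0.74 and 0.15) and Tmem129 (0.72 and 0.48) came first in suffix 1 with much lower values in suffix 2. All points of a correlation share a suffix and its UMI totals, so these are descriptions.

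B2m differed between the 2 suffixes in most names. It had the higher value in suffix 2 in 18 of 21 names, beyond counting error in 14, and was lower beyond it in 1, cDC1_Ccl22 (206 against 226, log2 ratio -0.13 [-0.22, -0.05]). The counts of 14 and 1 were the same without S100a8 and S100a9 in the totals. The median log2 ratio over names was 0.26. Macro_Maf stood at 179 in suffix 2 against 119 in suffix 1 (0.59 [0.56, 0.62]), where the median of all genes was -0.05, and neutrophils at 35.1 against 24.1 (0.54 [0.50, 0.59]). Among genes with 50 or more UMIs, 277 of 2557 were higher in suffix 2 in Macro_Maf and 470 of 2267 in neutrophils. In cDC1_Ccl22, 97 of 795 were lower. Pdia3 was higher beyond counting error in 1 name, B cells, where 453 of 2376 genes were. It was lower in 3, CD8_Tex (as were 486 of 2591 genes), Mono_Ly6c2 (172 of 1632) and cDC1_Clec9a (495 of 2045). The groups of both suffixes are unknown, and counts were used for 26.9% of the cells of suffix 2. A difference of library and one of tumour group cannot be told apart.

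**Figure D5:**
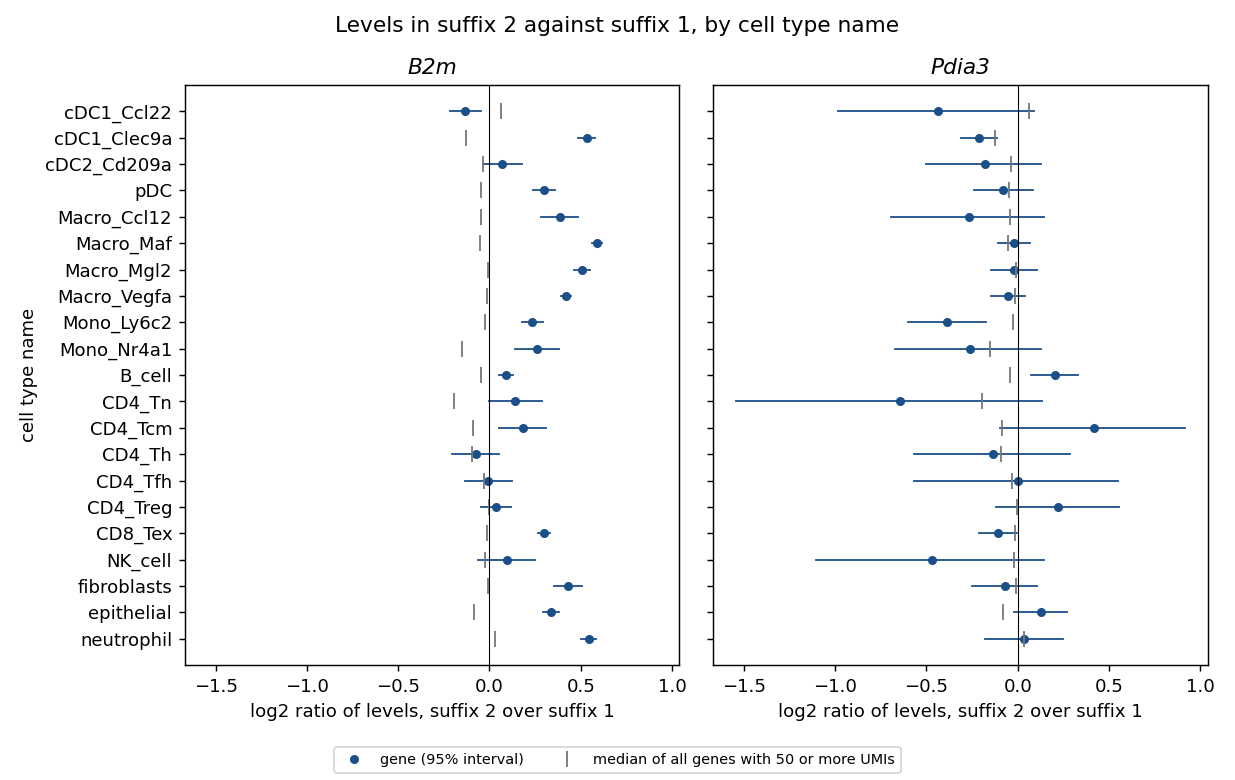
Log2 ratio of the level in suffix 2 over that in suffix 1 for B2m (left) and Pdia3 (right) in 21 cell type names, with exact 95% intervals. Grey ticks mark the median of all genes with 50 or more UMIs in that name. B2m lies right of 0 in 18 names, by up to 0.59 in Macro_Maf, while Pdia3 lies right of 0 in 5.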

How the data were processed

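Droplet single-cell libraries of CD45-positive, dye-negative cells came from Mif-depleted and wild-type 4T1 tumours, 4 samples of 3 pooled tumours each. The authors deposited UMI counts per gene and barcode and a cell type name for each of 45781 barcodes. Per the submitters' processing notes, which give no roles or versions, Cell Ranger, Seurat, GRCm38 and mm10 were used. How cells were filtered and named is not given in the sources used here. Every deposited count used was a whole number. All 13162 cells of suffix 1 and 3221 of suffix 2 had counts. An incomplete gene row was left out, and the other 4099 rows were used. No source ties the 4 suffixes to samples, so the test planned between groups was not run. Barcode sequences shared by pairs of suffixes numbered 24 to 42. The results of 1 cell type name are not reported here.

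UMIs were summed over the cells of a name within a suffix and scaled to 10000. Levels had exact Poisson intervals, shares exact Clopper-Pearson intervals and ratios exact conditional binomial intervals, all at 95%. Cells are not replicates and each suffix was taken as 1 library, which no source states. Neither p-values nor standard deviations were computed. Genes with at least 50 UMIs, the name and its comparison together, were called where the interval lay beyond 2-fold. The rule ran on all genes and was tested on simulated data with counting error only. That simulation held no variation between cells, tumours or libraries, so it cannot show how the calls fare under such variation. The limit that 0 UMIs allow was set at 3. Thinning drew 500 UMIs per cell and left out shallower cells. Resemblance between genes used log2(level + 0.1). Doublets were not called, and no label mentions their removal. The text names the 6 members, measured genes of the pathway lists, the 3 genes most like each member, the first and last 3 names of each order, and markers beside a result. Further names and pairs were given after their values were seen. The members and lists were chosen with earlier results of these data known, and the motifs after the sequences were seen. Gene positions are from GENCODE M21 on GRCm38. Python 3.11.15, numpy 2.4.6, scipy 1.17.1 and matplotlib 3.10.9 were used.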

Additional observations from a re-analysis of the deposited data

How the results depend on the processing

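No paired analysis was possible because no source ties barcode suffixes to samples, so the planned fit with and without a replicate block was not run. Of 176 recomputed log2 ratios to all other cells (22 ratios under 8 settings), 88 stayed within their counting interval, 87 moved beyond it and 1 reversed. The reversed one was B2m in neutrophils, 0.22 under median-of-ratios scaling against -2.16, where that scaling added 2.39 to every neutrophil ratio. Pdia3 in CD4_Th was near 0 in UMIs per cell, at -0.03 against 0.89. Suffix 2 and other cells without neutrophils were added as settings after the data were seen.

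With S100a8 and S100a9 left out of the totals, the log2 ratio of B2m in cDC1_Ccl22 was 1.22 (1.56 as reported), of Cd40 and Cd1d1 there 4.05 and 4.11 (4.39 and 4.45), of Pdia3 in fibroblasts 0.85 (1.21) and of Rfx5 in B cells 1.96 (2.36), and Rfx5 in B cells took place 2. Of 18 higher calls of members, 9 were kept, the call of Pdia3 in fibroblasts among those that ended. Of 8 lower calls 7 were kept, and 3 others arose. In UMIs per cell the ratios were 1.29 for B2m, 4.12 for Cd40, 1.87 for Pdia3, 3.54 for Mr1 in fibroblasts (2.88) and 0.95 for Rfx5, with 10 of the 18 and all 8 calls kept, and cDC1_Ccl22 took place 6 for B2m, fibroblasts 3 for Pdia3 and B cells 7 for Rfx5. Per cell, 23 other higher and 12 other lower calls of members arose. By name, 0.996% to 70.3% of genes were called higher per cell and 0.541% to 80.9% lower. Under median-of-ratios scaling the ratios were 1.41 for B2m, 0.98 for Pdia3 and 2.00 for Rfx5, with 13 of the 18 and 3 of the 8 calls kept and places 2 for Pdia3 and Rfx5. With every cell weighted alike they were 1.66 for B2m and 2.30 for Mr1, with place 4 for Pdia3 and 2 for Mr1. In suffix 2 they were 0.85 for B2m, 3.62 for Cd40, 3.72 for Cd1d1, 0.84 for Pdia3 and 2.00 for Rfx5, with place 2 for B2m and Rfx5. Without neutrophils among the other cells they were 1.08, 3.76, 3.88, 0.62, 2.28 and 1.75 for B2m, Cd40, Cd1d1, Pdia3, Mr1 and Rfx5. Leaving out cells under 500 UMIs, or T and natural killer cells with 5 or more C1q UMIs, moved none of these 6 ratios beyond its interval. Cd40 and Cd1d1 kept place 1 in cDC1_Ccl22 under every setting in which places were ranked. Except as stated, the cause of these shifts was not tested. Levels of Mr1 and Rfx5 rest on few UMIs, and small names on few cells.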

Other observations

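Mono_Itgal, with 41 cells in suffix 1 and 5 in suffix 2, was left out of the orders. In suffix 1 it had 106 UMIs per 10000 of B2m, 10.1 of Pdia3, 0.996 of Cd40 (13 UMIs), 0.843 of Cd1d1 (11 UMIs), 0.153 of Mr1 (2 UMIs) and 0.306 of Rfx5 (4 UMIs). In suffix 2 B2m stood at 102 and Pdia3 at 6.80, from 10 UMIs, and Cd40 and Mr1 had 0 UMIs.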
